A study of Mus musculus with 6 samples.

Results

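The genes described here are 10 secreted antagonists of Wnt signalling, *Sost*, *Sostdc1*, *Dkk1*, *Dkk2*, *Dkk3*, *Sfrp1*, *Sfrp2*, *Sfrp4*, *Frzb* and *Wif1*, chosen by name. Of these, 9 were found among the 48733 named genes of the deposited tables, and *Dkk3* had no row under its name. RNA-seq was available for 3 libraries labelled bone, from cortical bone of the femur with the marrow spun out, and 3 labelled osteoblasts, from marrow stromal cells cultured for 8 days with dexamethasone (10 nM), beta-glycerophosphate (10 mM) and ascorbic acid (50 µg/ml). All 6 came from CC016/GeniUnc mice, a Collaborative Cross inbred strain with no other allele or treatment given, and neither the age of these mice nor which bone and culture came from the same mouse is given. Levels are in FPKM, aligned fragments scaled to transcript length and library depth, so levels of different genes can be compared. Spread between replicates measures only the spread between these libraries.

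Wnt ligands bind Frizzled receptors together with the coreceptors LRP5 and LRP6, stabilise beta-catenin and promote bone formation by osteoblasts. Secreted antagonists act outside the cell on either side of this contact. Sclerostin, the product of *Sost* and a hallmark of osteocytes buried in bone, and the Dickkopf protein of *Dkk1* bind the LRP coreceptors, whereas the secreted Frizzled-related proteins (*Sfrp1*, *Sfrp2*, *Sfrp4*, *Frzb*) and the product of *Wif1* bind the Wnt ligands themselves.

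The libraries did not sort by label. The hemoglobin gene *Hbb-bt* was above 1000 FPKM in bone replicate 3 (34838 FPKM), osteoblasts replicate 2 (34268 FPKM) and osteoblasts replicate 3 (48650 FPKM), and between 3.43 and 7.05 FPKM in the other 3 libraries, which are bone replicate 1, bone replicate 2 and osteoblasts replicate 1. The 3 libraries with high *Hbb-bt* also held 14246 to 17225 FPKM of 7 neutrophil markers, 252 to 1141 FPKM of 5 skeletal muscle markers and 343 to 594 FPKM of 7 chondrocyte markers. The other 3 held at most 5.51 FPKM, 1.09 FPKM and 40.0 FPKM of the same lists, with *Elane* and *Col9a1*, named after their values were seen, listed at 0 in each. The 5 macrophage markers went the other way, with 1037 to 2035 FPKM in the libraries with low *Hbb-bt* and 303 to 394 FPKM in those with high *Hbb-bt*. Blood, neutrophil and muscle transcripts thus went against the labels in osteoblasts replicates 2 and 3, and their near absence set bone replicates 1 and 2 apart from bone replicate 3. The 6 named osteoblast markers summed to 3151 to 5043 FPKM in all 6 libraries, and *Col1a1*, the main collagen of bone, was between 1499 and 3332 FPKM. Within that list, *Bglap2* (osteocalcin) was at 1641 to 1959 FPKM where *Hbb-bt* was high and 264 to 513 FPKM where it was low, and *Ibsp* (bone sialoprotein) at 43.1 to 91.3 FPKM and 986 to 1278 FPKM. Depth ranged from 2.04 to 3.39 gigabases of aligned reads, and unnamed features took 71.5% of the FPKM in bone replicate 2 and 65.0% in osteoblasts replicate 1, against 27.4 to 30.7% in the others. No library was moved to another label and no average was taken over libraries chosen by *Hbb-bt*. In bulk RNA, fewer cells of a type and less RNA per cell cannot be told apart.

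**Figure D1:**
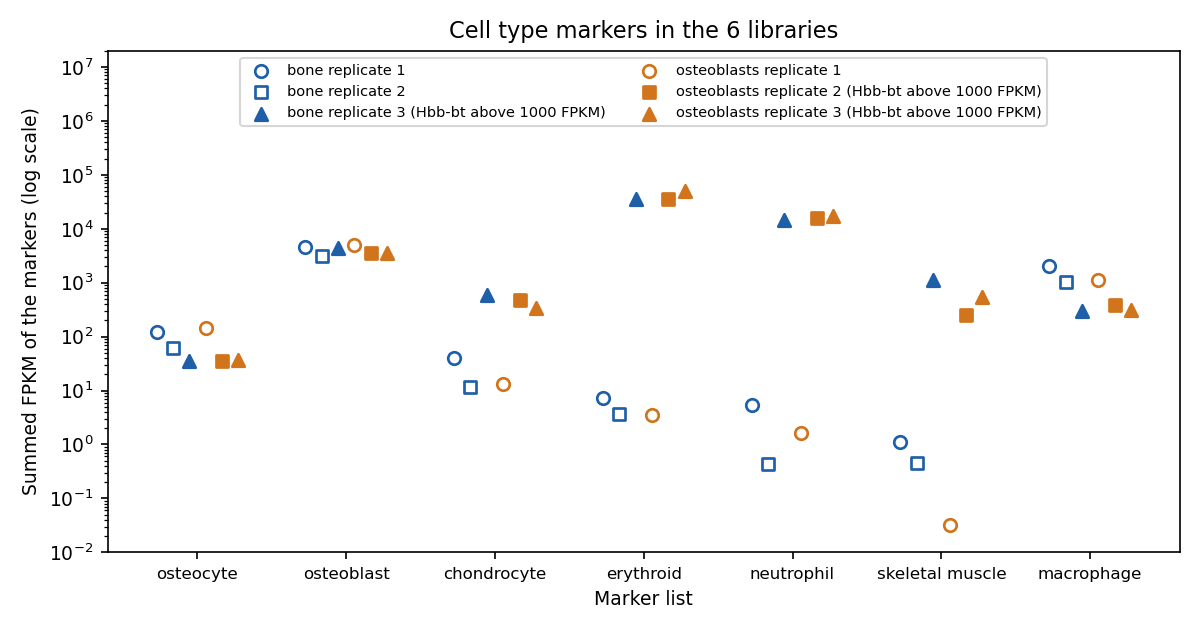
Summed FPKM of 7 lists of cell type markers (log axis) in each library, coloured by deposited label, shaped by replicate and filled where *Hbb-bt* was above 1000 FPKM. Erythroid, neutrophil, muscle and chondrocyte sums were high in bone replicate 3 and osteoblasts replicates 2 and 3, while the osteoblast sum stayed between 3151 and 5043 FPKM.

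*Sost* lies on the minus strand of Chr. 11, from 101962458 to 101967015 in GRCm38. In the libraries labelled bone it measured 0.176, 0.0661 and 18.8 FPKM (replicates 1, 2 and 3, the order kept for every gene here), and in those labelled osteoblasts 0.198, 22.7 and 15.8 FPKM. The 3 high values were in the libraries with *Hbb-bt* above 1000 FPKM, and the labels overlapped. On a transcript of 2066 bases, the low values correspond to about 6.0, 2.0 and 5.6 read pairs, near the limit of 3 pairs, and the high ones to 555 to 1061 pairs. Where it was high, *Sost* exceeded 76.2 to 82.8% of the genes with at least 1 FPKM in the same library. The 6 named markers on the osteocyte list summed to 35.2 to 36.2 FPKM in these libraries and to 62.5 to 146 FPKM in the others. *Dmp1* carried this gap, since the remaining 5 summed to 11.4 to 13.4 FPKM in these libraries and 12.5 to 20.1 FPKM in the others. *Dmp1*, another gene of osteocytes, did not share this order, with 104, 50.0 and 24.2 FPKM under the label bone and 127, 22.5 and 22.9 FPKM under the label osteoblasts. The ratio of *Sost* to *Dmp1*, which does not depend on library scaling, was 0.776, 1.01 and 0.692 in bone replicate 3 and osteoblasts replicates 2 and 3, and at most 0.00169 in the others.

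*Dkk1*, on the minus strand of Chr. 19 from 30545863 to 30549665, measured 0.200, 0.0285 and 6.002 FPKM in the libraries labelled bone and 0.276, 5.10 and 4.46 FPKM in those labelled osteoblasts. Its 3 highest values were in the same libraries as those of *Sost*, at 184 to 280 read pairs, and the other 3 came to about 8.1, 1.0 and 9.1 pairs. In the 3 libraries where both were measured by many reads, *Sost* was 3.14, 4.46 and 3.55 times as high as *Dkk1* in bone replicate 3, osteoblasts replicate 2 and osteoblasts replicate 3. *Dkk2*, a relative that can act as agonist or antagonist depending on the receptors present, lies on Chr. 3 from 132085292 to 132180304 and was low throughout, between 0.135 and 0.548 FPKM. Its values were 0.548, 0.212 and 0.219 FPKM under the label bone and 0.211, 0.210 and 0.135 FPKM under the label osteoblasts. On FPKM as deposited, the labels did not overlap for *Dkk2*. Yet bone replicate 2 and osteoblasts replicate 1 were separated by about 11.5 against 10.6 read pairs, which counting error covers. On these FPKM, the exact permutation test, two-sided, gave p = 0.1, the smallest that 3 libraries against 3 allow. As TPM, which rescales all genes of a library alike, the labels overlapped, with 0.168 in bone replicate 2 and 0.189 in osteoblasts replicate 1.

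*Sostdc1*, the closest relative of *Sost* and an inhibitor of both Wnt and BMP signals, lies on Chr. 12 from 36314139 to 36318452 (plus strand). It had 0.102 FPKM in bone replicate 1, about 3.0 read pairs, and was listed at 0 in the other 5 libraries, where 3 pairs would have given 0.0758 to 0.126 FPKM. It was therefore not detectable at this depth in those 5 libraries.

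*Dkk3*, a divergent member of the Dickkopf family, was not named in the tables, but an unnamed feature on the minus strand of Chr. 7 from 112116017 to 112159057 covers 99.0% of the RefSeq gene (112116019 to 112159482, GRCm38.p6). This feature reached 50.0, 30.4 and 1.95 FPKM under the label bone and 21.0, 1.297 and 1.46 FPKM under the label osteoblasts. It was high where *Hbb-bt* was low, above 84.4 to 91.9% of the genes with at least 1 FPKM, and the labels overlapped (exact permutation test, two-sided, p = 0.2). If the feature is taken as *Dkk3*, this gene was higher than any named antagonist in the 3 libraries with low *Hbb-bt*. It was kept out of the sums and shares given further on.

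Among the Frizzled-related genes, *Sfrp1* and *Sfrp2* were high where *Sost* was low. *Sfrp1*, on Chr. 8 from 23411502 to 23449632, measured 37.5, 13.6 and 0.413 FPKM in the libraries labelled bone and 18.04, 0.616 and 0.681 FPKM in those labelled osteoblasts. *Sfrp2*, on Chr. 3 from 83766321 to 83774316, measured 22.2, 6.67 and 0.762 FPKM under the label bone and 10.4, 0.367 and 0.517 FPKM under the label osteoblasts. For both genes bone replicate 1 was highest, followed by osteoblasts replicate 1 and bone replicate 2, and the libraries with high *Hbb-bt* were lowest. Even the lowest values rested on 30.2 read pairs of *Sfrp1* and 16.6 of *Sfrp2*, so both were detected in every library. Their ratio moved less than their levels, since *Sfrp1* was 1.69, 2.04 and 0.542 times *Sfrp2* under the label bone and 1.74, 1.68 and 1.32 times under the label osteoblasts.

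*Frzb*, which encodes secreted Frizzled-related protein 3 and is known from cartilage, lies on Chr. 2 from 80411970 to 80447625. It measured 1.98, 0.635 and 2.95 FPKM in the libraries labelled bone and 1.91, 5.42 and 3.25 FPKM in those labelled osteoblasts. On FPKM as deposited, its 3 highest values were in the libraries with high *Hbb-bt*, as for *Sost*. Bone replicate 1 (1.98 FPKM) was close to the lowest of these 3 values (2.95 FPKM). Named genes summed to 390066 FPKM in osteoblasts replicate 1 and 875547 FPKM in bone replicate 3. Relative to these sums *Frzb* was higher in osteoblasts replicate 1, so its order does not hold after scaling to named genes. Chondrocyte markers were also high with *Hbb-bt*, *Comp* at 108 to 189 FPKM in the libraries with high *Hbb-bt* against 8.63 to 27.1 FPKM in the others. Their part in the level of *Frzb* was not tested. The ratio of *Frzb* to *Sfrp1* was 0.0528, 0.0467 and 7.14 under the label bone and 0.106, 8.79 and 4.77 under the label osteoblasts, so these relatives exchanged their order between libraries.

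On FPKM as deposited, *Sfrp4* and *Wif1* followed neither order. *Sfrp4*, on Chr. 13 from 19623104 to 19632994, measured 19.2, 4.77 and 4.66 FPKM in the libraries labelled bone and 6.70, 7.14 and 5.21 FPKM in those labelled osteoblasts. Bone replicate 1 stood above the other 5 libraries, which lay within 4.66 to 7.14 FPKM. Relative to the sum over named genes, *Sfrp4* was higher in each library with low *Hbb-bt* than in any with high *Hbb-bt*. After that scaling it thus took the order of *Sfrp1* and *Sfrp2*, whereas *Wif1* still followed neither. *Wif1*, on Chr. 10 from 121033960 to 121100650, measured 12.4, 5.57 and 10.5 FPKM under the label bone and 4.55, 10.9 and 10.7 FPKM under the label osteoblasts. It varied least among the 7 antagonists with a mean of at least 1 FPKM, by 2.73 times from lowest to highest library, and its 2 low values were in the libraries where unnamed features took most of the FPKM. The order of levels differed between libraries. *Sfrp1* was the highest of the 9 and *Sfrp2* next in each library with low *Hbb-bt*, followed by *Sfrp4* and *Wif1*, in either order, and *Frzb*. *Sost* was the highest and *Wif1* next in each library with high *Hbb-bt*, followed by *Sfrp4*, *Dkk1* and *Frzb* in varying order. A level in a single library has no replicate error, so neighbours in these orders were not tested. *Sostdc1* was below *Dkk2* in every library.

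**Figure D2:**
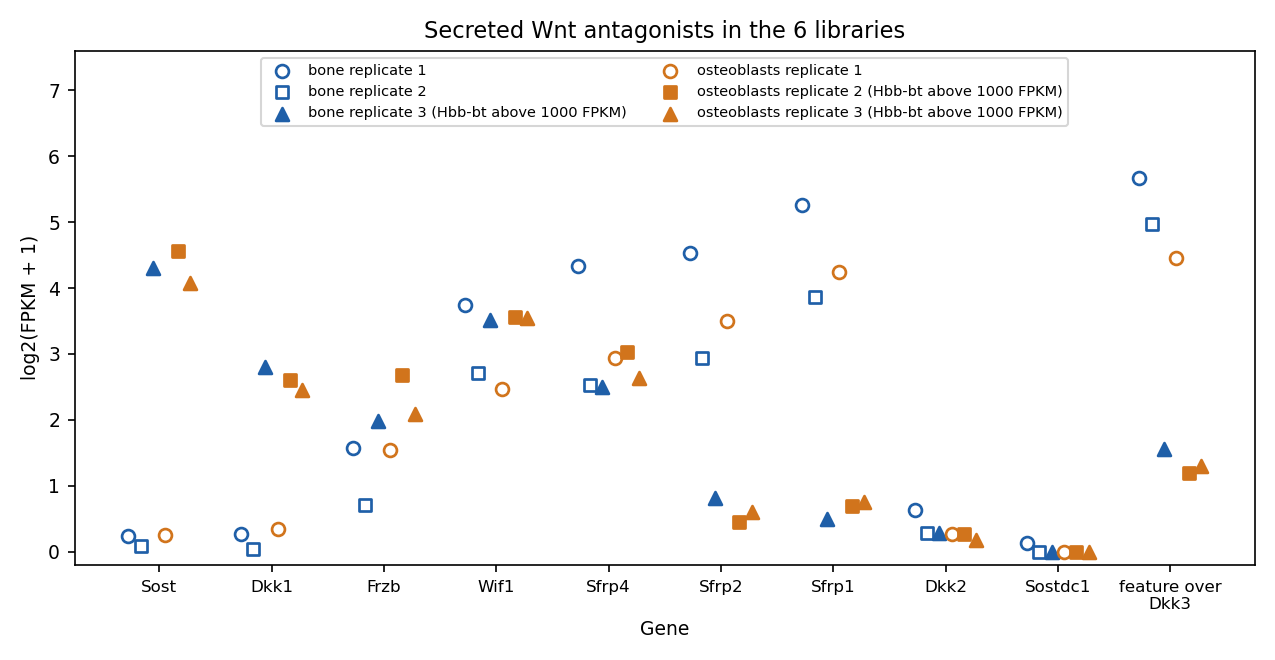
log2(FPKM + 1) of the 9 named antagonists and of the unnamed feature over *Dkk3* (y axis) in each library, with colour for the label, shape for the replicate and filled symbols for *Hbb-bt* above 1000 FPKM. Filled symbols lie above open ones for *Sost*, *Dkk1* and *Frzb* and below them for *Sfrp2*, *Sfrp1* and the feature over *Dkk3*, whatever the colour.

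The total of the 9 named antagonists varied less than most of its parts. It came to 94.3, 31.6 and 44.3 FPKM in the libraries labelled bone and 42.2, 52.4 and 40.7 FPKM in those labelled osteoblasts. Rescaled to the sum over named genes, which removes the unnamed features, it was 103, 57.6 and 32.9 FPKM under the label bone and 70.4, 39.6 and 32.1 FPKM under the label osteoblasts, with the 3 highest totals then in the libraries with low *Hbb-bt*. The composition, which does not depend on scaling, differed more. *Sost* made up 42.5%, 43.3% and 38.8% of the total in bone replicate 3, osteoblasts replicate 2 and osteoblasts replicate 3, and at most 0.469% in the others. *Sfrp1* made up 39.8%, 43.1% and 42.7% in bone replicate 1, bone replicate 2 and osteoblasts replicate 1, and 0.932 to 1.67% in the others. The 4 Frizzled-related genes together held 81.4 to 87.6% of the total where *Hbb-bt* was low and 19.8 to 25.8% where it was high, while *Sost* and *Dkk1*, which act on the coreceptors, held 0.2997 to 1.12% and 49.8 to 56.0%. *Wif1* held 10.8 to 17.6% where *Hbb-bt* was low and 20.7 to 26.2% where it was high. *Sfrp4* held 15.1 to 20.4% where *Hbb-bt* was low and 10.5 to 13.6% where it was high.

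**Figure D3:**
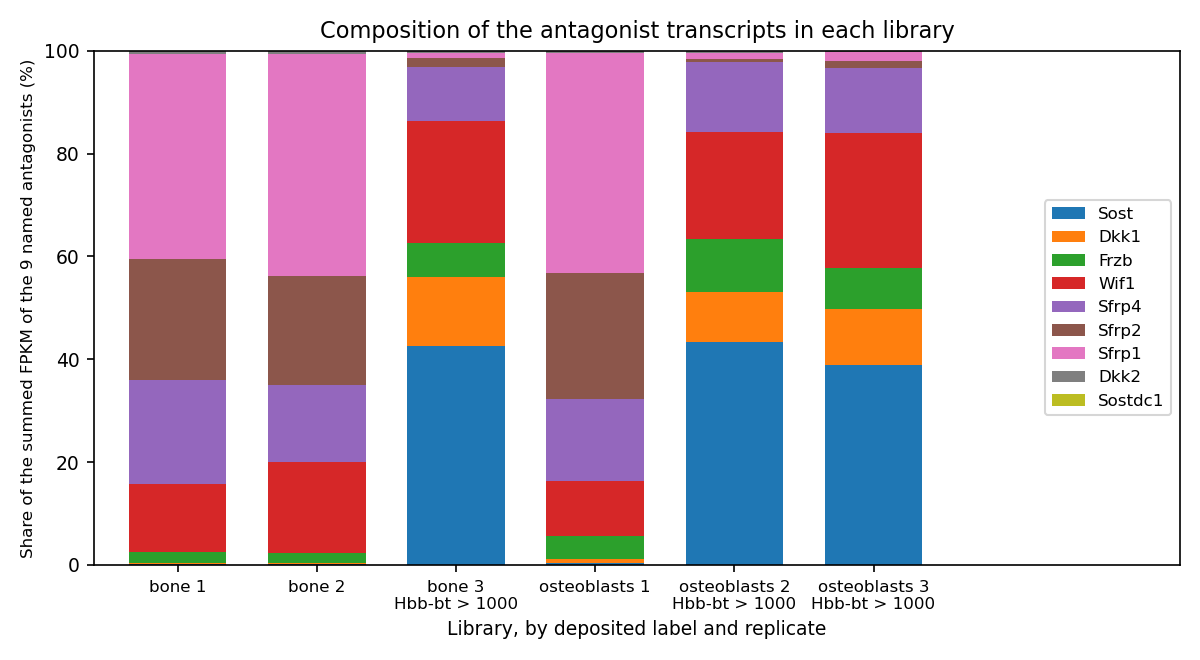
Share of each of the 9 named antagonists in their summed FPKM (y axis, %), with 1 stacked bar per library. *Sfrp1* and *Sfrp2* filled 63.3 to 67.2% of the bar in the 3 libraries with low *Hbb-bt*, and *Sost* and *Dkk1* 49.8 to 56.0% in the libraries with *Hbb-bt* above 1000 FPKM.

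The comparison that the labels give, osteoblasts against bone, was run on log2(FPKM + 1) with limma across all 12112 genes with a mean of at least 1 FPKM, and 7 of the 9 named antagonists passed this filter. limma called 0 of the 7 at a Benjamini-Hochberg adjusted p under 0.05, as it called 0 of 12112 genes (0.0%), and 0 of the 7 and 17 of the 12112 (0.14%) had an unadjusted p under 0.05. No other tool was run. With the replicate number as a block in the limma model it called 0 of the 7 and 0.405% of all genes. In that limma model the unadjusted p was 0.012 for *Sost*, 0.022 for *Sfrp1* and 0.026 for *Sfrp2* (adjusted p 0.657, 0.895 and 0.989). It was 0.156 to 0.824 for the others. The share of all genes with an unadjusted p under 0.05 in that model was not counted, so these values cannot be read as particular to the antagonists. *Sost* was higher by 1.42 on this scale under the label osteoblasts (standard error 1.35), *Dkk1* by 0.77 (0.86) and *Frzb* by 0.68 (0.50). With a pseudocount of 0.1, the differences of *Sost* and *Dkk1* were 2.32 and 1.75. *Sfrp1* was lower under the label osteoblasts, with a difference of -1.31 (1.28), and *Sfrp2* differed by -1.24 (1.05), *Sfrp4* by -0.25 (0.56) and *Wif1* by -0.13 (0.50). The limma adjusted p was 0.999 for each of the 7. Over the 7 the median difference was -0.13, beside 0.12 over all genes tested. After scaling to named genes, the median was -0.31 over the 7 and -0.04 over all genes tested. The labels overlapped for each of the 7, whereas 0.916% of all genes tested did not overlap, 0.479% higher and 0.438% lower under the label osteoblasts.

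The size and sign of these differences depended on which libraries entered. For *Sost* the SD on the log2 scale was 2.39 under the label bone and 2.36 under the label osteoblasts (n = 3 each), wider than the difference of 1.42. Without osteoblasts replicate 1, limma called *Sost* higher by 2.78 under the label osteoblasts (limma adjusted p = 0.0323), 1 of the 7 beside 2.48% of all genes in the same setting, although bone replicate 3 still lay between the remaining osteoblasts libraries. Without bone replicate 3 it called none of the 7 beside 0.636% of all genes, and without each of the other 4 libraries none. Without osteoblasts replicates 2 and 3, and without bone replicates 1 and 2, which stood apart from bone replicate 3, 1 library of each label remained and no test was possible. Between these, *Sost* was lower in osteoblasts replicate 1 by a difference of -4.05, *Dkk1* by -2.46, *Wif1* by -1.05 and *Frzb* by -0.44, and *Sfrp1* was higher by 3.75, *Sfrp2* by 2.69 and *Sfrp4* by 0.44. The sign was opposite to that over all 6 libraries for 6 of the 7, *Wif1* being the exception. *Sost*, *Dkk1*, *Frzb*, *Sfrp1* and *Sfrp2* were ordered with *Hbb-bt*, high in bone replicate 3 and low in osteoblasts replicate 1. For these genes, keeping only these libraries fixed the sign in advance. Across 12112 genes, the deviations of osteoblasts replicate 1 and bone replicate 3 from their label means had a correlation of -0.91. The share of all genes that reversed was not counted, so the reversal cannot be read as particular to the antagonists.

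**Figure D4:**
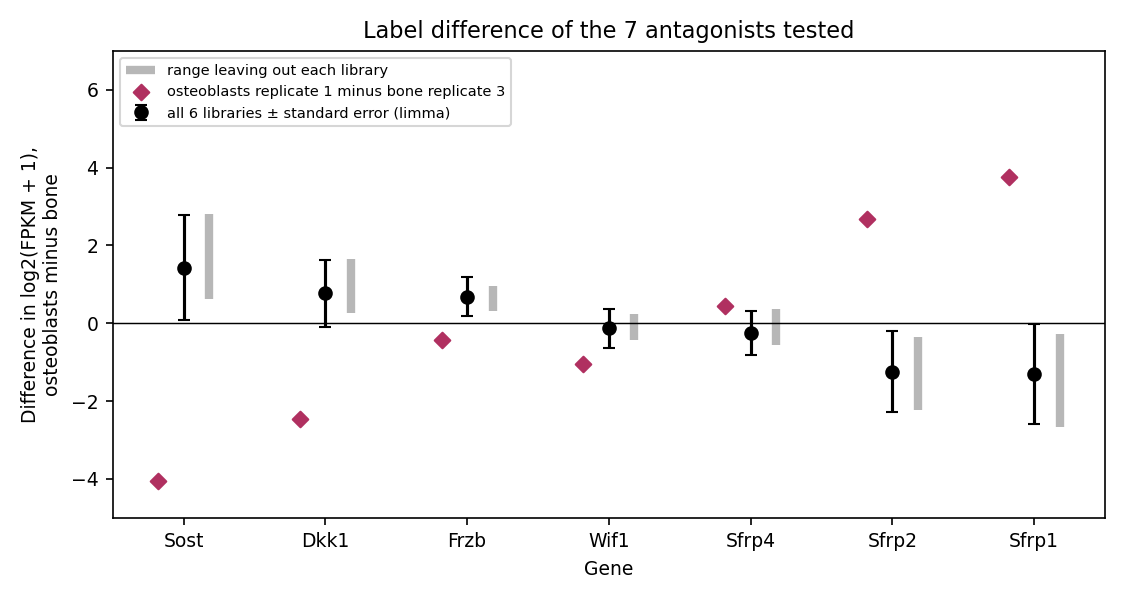
Difference in log2(FPKM + 1), osteoblasts minus bone (y axis), for the 7 antagonists tested, as the limma estimate with its standard error (black), the range on leaving out each library (grey) and the value of osteoblasts replicate 1 minus bone replicate 3 (diamonds). The diamonds have the opposite sign to the black points for every gene but *Wif1*.

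Of the 7, *Sost*, *Dkk1* and *Frzb* had their 3 highest values in the libraries with *Hbb-bt* above 1000 FPKM, as did 38.4% of the 12112 genes, and *Sfrp1* and *Sfrp2* had their 3 lowest values there, as did 16.9%. Such an order was thus common among all genes. These shares are of FPKM as deposited and were not counted after scaling to named genes. Under that scaling *Frzb* does not keep its order, and *Sfrp4* takes the order of *Sfrp1* and *Sfrp2*.

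RefSeq promoters (GRCm38.p6) were given for 6 of the 10 antagonists. The 250 bases before the start are shown for *Sost* and *Sfrp2*, which had opposite orders over the libraries, and for *Dkk2*, which was low in all of them. They are printed 5′ to 3′ on the strand of the gene, with capitals on any match, on either strand, to the TATA box, searched as TATAAA. The core of RUNX sites, searched as TGTGGT, and the core of the TCF and LEF sites through which beta-catenin acts, searched as CTTTGA, were marked in the same way. The E-box (CANNTG), the GC box (GGGCGG) and CCAAT were counted but not marked.
Sost promoter, chr11:101967016-101967265, minus strand: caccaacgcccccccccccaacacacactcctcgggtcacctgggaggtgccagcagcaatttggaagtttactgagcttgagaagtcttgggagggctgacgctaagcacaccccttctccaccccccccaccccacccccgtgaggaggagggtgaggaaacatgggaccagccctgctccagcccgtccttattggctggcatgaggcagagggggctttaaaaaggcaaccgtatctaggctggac
Sfrp2 promoter, chr3:83766071-83766320, plus strand: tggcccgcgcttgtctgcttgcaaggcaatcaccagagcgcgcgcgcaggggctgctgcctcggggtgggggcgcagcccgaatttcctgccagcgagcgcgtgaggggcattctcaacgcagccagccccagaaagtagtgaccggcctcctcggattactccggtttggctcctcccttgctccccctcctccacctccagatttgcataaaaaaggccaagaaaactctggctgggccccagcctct
Dkk2 promoter, chr3:132085042-132085291, plus strand: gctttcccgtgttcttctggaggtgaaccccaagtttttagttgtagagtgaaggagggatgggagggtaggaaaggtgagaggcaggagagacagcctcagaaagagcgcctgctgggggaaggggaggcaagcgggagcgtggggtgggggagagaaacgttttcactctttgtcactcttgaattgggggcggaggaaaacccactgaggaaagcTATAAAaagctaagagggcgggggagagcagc
The windows of *Sost* and *Sfrp2* held no match to the 3 marked motifs, and that of *Dkk2* held 1 match to TATAAA, starting 32 bases before the start. The windows of *Dkk1*, *Frzb* and *Wif1* are not printed, because the deposited features of these genes begin inside them. That of *Dkk1* held 1 match to TATAAA, 1 to TGTGGT and 2 to CTTTGA, that of *Frzb* 1 to CTTTGA and that of *Wif1* 1 to TATAAA. Over 32851 promoters of the same length, 12.4% held TATAAA, 14.0% TGTGGT and 13.8% CTTTGA. Of the motifs not marked, the window of *Sost* held 1 E-box and 1 CCAAT, that of *Dkk2* 2 GC boxes and 1 CCAAT, that of *Frzb* 1 E-box and 1 GC box, and that of *Wif1* 2 of each of these 2, with none in those of *Sfrp2* and *Dkk1*. Over the same promoters, 66.2% held an E-box, 32.7% a GC box and 33.8% CCAAT. GC content was 61.2% for *Sost*, 63.6% for *Sfrp2* and 55.6% for *Dkk2*, beside a median of 52.4%. *Sost* and *Dkk1*, high in the same libraries, shared none of the 6 motifs.

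To place each antagonist among other genes, the 3 protein-coding genes with the most similar pattern were taken, as the root mean square (RMS) difference of log2(FPKM + 1), centred over the 6 libraries. The 6 libraries fall into separate sets, so a small RMS difference is a description only. For *Sost* these were *Cst7* (RMS difference 0.12), *Icam4* (0.15), a red cell adhesion molecule, and *Prss57* (0.17), a serine protease of neutrophil granules. For *Dkk1* they were *Pold1* (0.08), the catalytic subunit of DNA polymerase delta, *Gm7694* (0.09) and *Jakmip1* (0.10). *Sfrp1* was nearest to *Adam23* (0.18), *Tagln* (0.21), an actin-binding protein of contractile stromal cells, and *Cyp1b1* (0.21), which was also near the feature over *Dkk3* (0.22). *Sfrp2* was nearest to *Apoe* (0.17), *Nkd2* (0.20), an intracellular inhibitor of Wnt signalling, and *Fsip1* (0.20). *Sfrp4* was nearest to the chemokine gene *Cxcl14* (0.09) and *Frzb* to *Acbd6* (0.09). Among the antagonists, *Sfrp1* and the feature over *Dkk3* were the most alike (0.33), followed by *Sfrp1* and *Sfrp2* (0.43), and *Sost* and *Sfrp1* the least (3.99).

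Other genes of the pathway were read from lists of ligands, receptors, agonists, mediators, feedback targets and further inhibitors. limma called 0 of the 38 tested at an adjusted p under 0.05, and 0 had an unadjusted p under 0.05. Their median difference was -0.09, beside 0.12 over all genes tested. Of the 38, 4 had their 3 highest values and 18 their 3 lowest values in the libraries with *Hbb-bt* above 1000 FPKM, beside 38.4% and 16.9% of all genes. The 4 were *Wnt5b*, *Fzd9*, *Lef1* and *Dkkl1*. These counts are also of FPKM as deposited, and *Wnt5b* does not keep its order after scaling to named genes.

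Ligands were low, with 5 of 18 named ones reaching a mean of 1 FPKM and 5 listed at 0 in every library. *Wnt5b* measured 1.95, 1.41 and 4.98 FPKM under the label bone and 1.23, 3.28 and 3.06 FPKM under the label osteoblasts. *Wnt5a*, a ligand of the beta-catenin-independent branch, measured 3.44, 3.19 and 0.864 FPKM under the label bone and 3.15, 0.673 and 0.669 FPKM under the label osteoblasts. On FPKM as deposited, these close relatives thus had opposite orders over the libraries, as *Frzb* and *Sfrp1* did. Relative to the sum over named genes, *Wnt5b* was higher in bone replicate 2 than in osteoblasts replicates 2 and 3. The order of *Wnt5b*, like that of *Frzb*, therefore does not hold after scaling to named genes. *Wls*, which carries Wnt proteins to the cell surface, ranged from 9.22 to 72.7 FPKM and was highest in bone replicate 1.

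The coreceptor *Lrp5*, on which sclerostin and DKK1 act, was present in every library, at 17.8, 6.32 and 14.2 FPKM under the label bone and 11.3, 13.2 and 15.5 FPKM under the label osteoblasts. *Kremen1*, a membrane partner of DKK1, was at 43.5, 23.3 and 5.92 FPKM under the label bone and 31.8, 4.94 and 4.30 FPKM under the label osteoblasts. It was therefore lowest in the libraries where *Dkk1* was highest. Of the 11 receptors and coreceptors tested, 8 had their 3 lowest values in those libraries and 1 its 3 highest. Over all genes tested, these shares were 16.9% and 38.4%. *Lrp4*, which anchors sclerostin, had no row under its name and was not analysed here.

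*Ctnnb1*, the gene of beta-catenin, lay between 78.8 and 155 FPKM. Feedback targets of the pathway differed among themselves, and 4 of the 8 tested were lowest in the libraries with high *Hbb-bt*, beside 16.9% of all genes. *Wisp1* was at 26.8, 18.6 and 7.05 FPKM under the label bone and 28.5, 7.70 and 6.61 FPKM under the label osteoblasts. *Nkd2* was at 46.5, 15.6 and 3.70 FPKM under the label bone and 18.6, 2.26 and 2.12 FPKM under the label osteoblasts. *Apcdd1*, a membrane-bound Wnt inhibitor, was at 27.7, 21.2 and 2.94 FPKM under the label bone and 26.6, 1.496 and 1.495 FPKM under the label osteoblasts, and limma called it without osteoblasts replicate 1 (difference -2.44, limma adjusted p = 0.0338). This was 1 of the 38, a share near the 2.48% of all genes called in that setting. *Axin2*, a target named after its values were seen, stayed between 0.892 and 2.87 FPKM and followed neither order. Among further secreted inhibitors, *Notum* stayed between 1.33 and 1.88 FPKM, while *Dkkl1* reached 1.68 to 2.73 FPKM and *Sfrp5* 0.955 to 1.34 FPKM where *Sost* was high and were listed at 0 elsewhere.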

How the data were processed

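Total RNA from bone and from cultured osteoblasts was sequenced in paired ends. The authors aligned the reads to GRCm38 with HISAT2 2.0.5 and a SNP-aware index, and the submitters' processing notes also name SAMtools 1.7 and StringTie 1.3.3. The deposited tables give coverage (mean reads per base), FPKM and TPM of every feature, as the authors computed them, and no counts. Some features carry no gene name, and *Dkk3* and 8 of the 74 other pathway genes had no named row. FPKM were summed by gene name. Dividing coverage by FPKM gave the depth of each library (the commonest value was taken), and 3 read pairs on 1 kb correspond to 0.133 to 0.221 FPKM. Read pairs per antagonist were estimated from FPKM, depth and the longest GENCODE vM1 transcript, and cover counting error only.

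Genes with a mean of at least 1 FPKM were compared on log2(FPKM + 1) with limma 3.58.1 in R 4.3.3 (moderated by eBayes, trend on mean level), p-values being adjusted by Benjamini-Hochberg over all genes, at a threshold of 0.05. The pseudocount of 1 understates changes of low genes. Antagonists below the filter, and the feature over *Dkk3*, which was left out of the limma fit, were compared with an exact permutation test. limma was tested on simulated data. The simulated libraries were independent and varied less than these, whose median within-label SD of log2(FPKM + 1) was 0.59. Alternatives were another pseudocount (0.1), no filter, TPM, scaling to named genes or to the 75th percentile, no trend, the replicate number as a block, and leaving out libraries. All 10 antagonists are named, with the 3 highest members by mean FPKM of each pathway and marker list, members past the threshold, and the 3 most similar genes. Antagonists and lists were chosen with earlier results of these data known. Python 3.11.15, pandas 2.3.3, numpy 2.4.6 and matplotlib 3.10.9 were used. Positions are those of the deposited tables in GRCm38. The NCBIM37 genome was not used. Some genes that the naming rule picks are not reported here.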

Additional observations from a re-analysis of the deposited data

How the results depend on the processing

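The counts of calls depended on single libraries. Leaving out each library in turn, limma called 0 to 300 of all genes, 0 to 1 of the antagonists (*Sost*, without osteoblasts replicate 1) and 0 to 1 of the other pathway genes. It called 300 genes without osteoblasts replicate 1 and 77 without bone replicate 3. A replicate block in the limma model gave 49 calls over all genes and none among the antagonists. Same-numbered libraries had correlations of their deviations from the label mean of 0.84, -0.75 and 0.83 across 12112 genes. Unlike-numbered libraries had 0.80 and 0.83 where *Hbb-bt* was alike, and -0.72 to -0.91 where it was not. These correlations followed *Hbb-bt* and cannot tell whether the shared numbers pair the libraries. The numbers were not taken as pairs, since no pairing is given. Another pseudocount, no filter, TPM, both other scalings and no trend left the counts at 0 and the sign of all 7 differences as it was. Sizes moved by over 1.5 times for *Sost* (2.32) and *Dkk1* (1.75) with the pseudocount of 0.1, for *Sfrp4* (-0.42) after scaling to named genes, and for *Wif1* (-0.20 to -0.31) with TPM and both scalings. On leaving out each library, the difference of *Sfrp4* ranged from -0.57 to 0.35 and that of *Wif1* from -0.44 to 0.23, with both positive without bone replicate 1, and *Wif1* also without osteoblasts replicate 1. With osteoblasts replicate 1 and bone replicate 3 alone, the differences were -4.05 for *Sost*, -2.46 for *Dkk1*, -0.44 for *Frzb*, 3.75 for *Sfrp1*, 2.69 for *Sfrp2* and 0.44 for *Sfrp4*. The summed FPKM of the antagonists became 70.4, 39.6 and 32.1 in osteoblasts replicates 1, 2 and 3 after scaling to named genes, and 43.1 in osteoblasts replicate 2 as TPM. Shares cannot change under TPM, which rescales all genes of a library alike. Values under 3 read pairs, as for *Sostdc1* and for *Sost* and *Dkk1* in bone replicate 2, cannot be ordered at this depth.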
